A study of Mus musculus with 61 samples.

Results

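The genes described here encode collagens, laminins and integrins, together with 8 further proteins of the matrix that surrounds cells (Prelp, Fn1, Sparc, Lum, Dcn, Bgn, Nid1 and Hspg2). Members were taken by gene symbol: Col with a chain number, Lama, Lamb or Lamc with a number, and Itga or Itgb followed by a digit, which also takes in 3 genes named for binding an integrin (Itgb1bp1, Itgb1bp2 and Itgb3bp). Of 19057 genes on the array 81 were members, and 54 of these were among the 12157 genes that were detected on at least 5 of 61 arrays (detection p under 0.05) and could be tested, each by its brightest probe. The 54 were 22 of 41 collagens, 5 of 9 laminins, 17 of 20 integrins, 2 of 3 integrin-binding genes and all 8 named matrix proteins. Of the 27 that were not tested, 13 were detected on 0 arrays, among them Lama1, Lamb1, Itgb7 and Col5a2, and the fibrillar collagen chain Col1a2 was detected on 4. Detection was uneven among those tested: 15 were detected on all 61 arrays, 16 on 30 to 60 and 23 on 5 to 29.

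Collagens form fibrils and sheets in the matrix, laminins assemble with type IV collagen, nidogen and perlecan (Hspg2) into basement membranes, and integrins are paired alpha and beta receptors through which cells hold on to both. In healthy liver the space between hepatocytes and sinusoids has only a loose matrix, most collagen is made by stellate cells, and hepatocytes are known for making plasma fibronectin and type XVIII collagen. The receptor chain gp130 (gene Il6st) carries the signal of IL-6 into the cell, largely through the transcription factor STAT3.

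Hepatocytes came from C57BL/6 mice of 2 genotypes: gp130-, where a Cre driven by the albumin promoter (alb-Cre) removes the floxed gp130 gene in hepatocytes, and gp130flox littermates, which carry the floxed gene without Cre and served as controls. Cells of both genotypes were plated on collagen-coated dishes in serum-containing medium for a day, starved overnight and given 200 ng/mL IL-6 for 0, 1, 3, 6 or 12 h without serum, so that every value below is that of a cultured cell on collagen. There were 7, 6, 6, 7 and 7 gp130flox arrays and 6, 6, 5, 5 and 6 gp130- arrays at these times. The numbers in the headers of the deposited columns put the arrays into 13 preparations, 7 of gp130flox and 6 of gp130-, most of them followed over all 5 times. What the numbers stand for was not stated, so that a preparation means here the arrays of 1 genotype and number, and p-values measure the spread between these samples.

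Il6st itself was lower in gp130- at every time (log2 difference of -0.70, -0.88, -1.58, -0.92 and -0.78 from 0 to 12 h), with no overlap between the genotypes at 3 and 6 h (adjusted p = 2.9e-05 and 0.028, limma). Between 15257 and 19256 of 45281 probes were detected on an array. Preparations numbered 1 to 4 (25 arrays) and 6 to 11 (36 arrays) stood apart: 15.5% of all tested genes were lower and 11.9% higher in numbers 6 to 11, with preparation means that did not overlap and differed over 1.5-fold. Of 21 tested hepatocyte markers 15 were higher and 1 lower in numbers 6 to 11, and the differences ran from -1.58 (Apob) to 8.53 (Cyp2e1, log2). Of 15 tested Kupffer and leukocyte markers 10 were higher there and 0 lower, with a median difference of 1.70. Acta2 and Vim, which mark myofibroblasts and mesenchymal cells, differed by -2.94 and -2.43, lower in numbers 6 to 11. Of 8 cholangiocyte markers 1 was lower (Krt19, -4.18) and 1 higher (Aqp1, 2.95). Of 11 tested stellate and fibroblast markers, Acta2 and Vim among them, 4 were lower in numbers 6 to 11 and 1 higher. The stellate markers Lrat and Pdgfrb were detected on 0 arrays, but Des on 52, Reln on 57 and Cygb on 60. Reln and Cygb differed by 0.58 and 0.64, higher in numbers 6 to 11. In bulk RNA, fewer cells of a type and less RNA per cell cannot be told apart. Only gp130- preparations 2 and 3 had a signal of Xist (8.86 and 8.26 against at most 4.25 elsewhere), so sex and genotype were not balanced.

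Between the genotypes few members differed, and those that did were not a common class. In limma with 10 group means over all arrays, with a call at adjusted p under 0.05 and over 1.5-fold, 0 of 54 members were called at 0 h, where 0.132% of all tested genes were lower and 0.0576% higher in gp130-. At an unadjusted p under 0.05 and the same fold, 2 members and 175 of all 12157 genes passed at 0 h. At 1 h the laminin receptor chain Itga6 was lower and the basement membrane collagen Col18a1 higher (1 member of 54 each, against 0.337% of all genes lower and 0.132% higher). At 3 h Itga6 was lower (0.658% of all genes lower, 0.28% higher). At 6 h Itga7, another laminin receptor chain, and the proteoglycan Prelp were lower and Col18a1 and Itgb3bp higher, 2 members each way against 0.814% and 0.354% of all genes. At 12 h Itga7 and Prelp were lower (0.699% lower, 0.255% higher). Over all 54 members, 25 to 30 lay below 0 at a time, and their median difference lay between -0.03 and 0.04, where that of all genes was 0.01 at every time.

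Prelp encodes a leucine-rich proteoglycan that ties basement membranes to the collagen beneath them. RefSeq's promoter window for Prelp (GRCm38.p6, chr1:133921352-133921651, minus strand, from 250 bases before the start to 50 after it) is shown because Prelp was the member with the widest gap between the genotypes at 12 h, and because IL-6 signalling acts through STAT3. The STAT-type palindrome TTCNNNGAA, which reads the same on both strands and would be in capitals, is not among its letters.

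Prelp: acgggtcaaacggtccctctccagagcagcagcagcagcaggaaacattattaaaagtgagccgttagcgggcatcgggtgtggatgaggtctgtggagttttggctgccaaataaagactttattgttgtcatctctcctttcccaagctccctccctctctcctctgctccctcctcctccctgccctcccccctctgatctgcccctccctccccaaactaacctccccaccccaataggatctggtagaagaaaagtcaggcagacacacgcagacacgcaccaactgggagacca

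At 0 h the Prelp signal of the 7 gp130flox arrays ran from 5.30 through a median of 5.94 to 6.47 (log2), and that of the 6 gp130- arrays from 4.62 through 5.38 to 6.34. At 6 h the gp130flox arrays lay at 5.74, 7.08 and 7.37 (lowest, median, highest), while the 5 gp130- arrays read 4.52, 4.80, 5.01, 5.86 and 6.34. At 12 h the gp130flox arrays lay at 5.96, 7.42 and 7.90 and the gp130- arrays at 4.70, 5.35 and 6.25. The genotypes overlapped at every time, at 12 h through a single gp130flox array at 5.96 that was lower than the highest gp130- array. The difference was -0.52, -0.45, -1.02, -1.51 and -1.83 (log2, SE 0.35 to 0.38) from 0 to 12 h, with adjusted p of 0.015 at 6 h and 0.00086 at 12 h. With preparations as a random replicate block, the 6 h value was -1.42 (adjusted p = 0.06) and was no longer called, whereas that at 12 h was (adjusted p = 0.0051), the only member lower at that time against 0.962% of all genes. Leaving out gp130- number 2, 6 or 7 ended the 6 h call (adjusted p up to 0.086), and leaving out preparation 6 or 7 of gp130- that of the mean over the times (up to 0.057). Within numbers 6 to 11 the differences at 6 and 12 h were -2.39 and -2.47 (adjusted p = 3e-05 and 2e-06). The 6 h value rests on only 2 gp130- arrays, numbers 6 and 7. Preparation 9 of gp130-, not among them, had a mean over its times of 5.89, against 4.78 and 4.63 in 6 and 7. Within numbers 1 to 4 the differences at 6 and 12 h were -0.50 and -0.64 and not called (adjusted p = 0.85 and 0.91). The difference was thus called in the one set and not in the other. Whether the 2 sets differ in this was not tested.

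**Figure D1:**
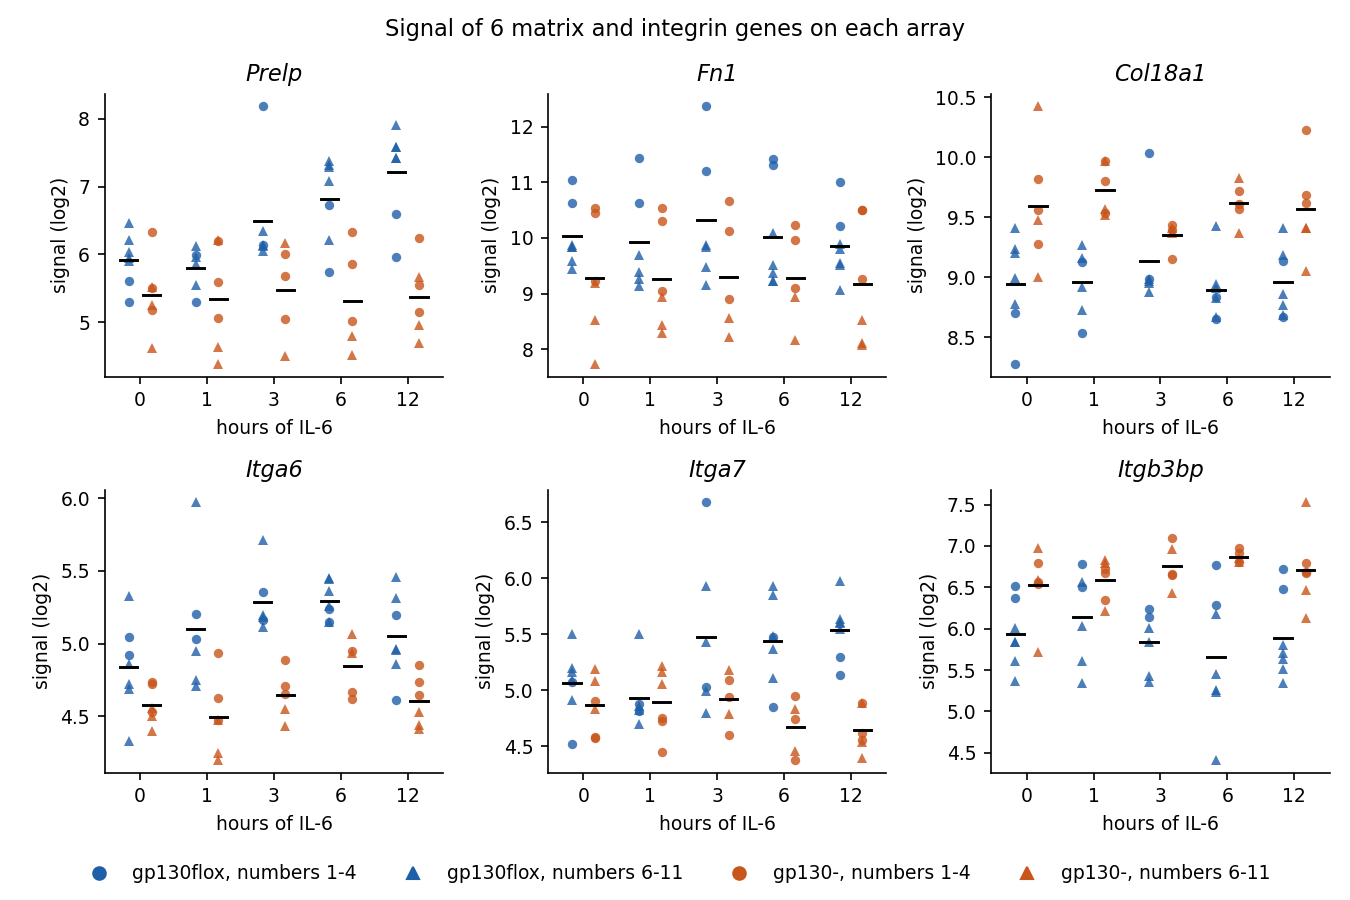
Log2 signal of Prelp, Fn1, Col18a1, Itga6, Itga7 and Itgb3bp on each array (y axis) against hours of IL-6 (x axis, evenly spaced), with gp130flox in blue and gp130- in orange, circles for preparations 1 to 4 and triangles for 6 to 11, and black bars for group means. The group means of Prelp lie furthest apart at 6 and 12 h, where single arrays still overlap, Itga7 is apart at 12 h, and Fn1 lies highest in the circles of both genotypes.

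The change after IL-6 was also taken within each preparation. Only the 0 h arrays were without IL-6, and no later array was left untreated. A change from 0 h is therefore also one over time in serum-free culture, here and below. IL-6 and time cannot be told apart within a genotype. For Prelp, each preparation's own 12 h array less its own 0 h array gave 0.67, 0.99, 1.21, 1.38, 1.43, 1.63 and 1.67 in the 7 gp130flox preparations (log2). The same difference in the 6 gp130- preparations was -0.29, -0.09, -0.03, 0.05, 0.08 and 0.15. All gp130flox changes were above all gp130- changes. At 6 h the gp130flox preparations had changed by 0.26 to 1.46 and the 5 gp130- preparations by -0.73 to 0.36, which overlap.

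For the change after IL-6 the call rested on the handling of preparations. Without a block 0 of 54 members changed in gp130flox in the joint F-test over the 4 later times (0.074% of all genes did). At an unadjusted p under 0.05 and over 1.5-fold, 1 member and 77 of all genes passed. With the preparation as a fixed replicate block 2 members were called, Prelp and Itga2, against 1.34% of all genes. The random block named the same 2 (0.954% of all genes). Prelp in gp130flox had then risen by 0.89 at 6 h (SE 0.24, adjusted p = 0.034) and by 1.28 at 12 h (SE 0.24, adjusted p = 0.00051), where the fit without the block gave the same sizes with adjusted p of 1 and 0.21. In gp130- the joint F-test called no member and no gene with or without the block (0%). At an unadjusted p under 0.05 and over 1.5-fold, 0 members and 3 genes passed without the block. With the fixed block 1 member and 46 genes did. For Prelp the difference between the genotypes' changes at 12 h was -1.31 (SE 0.35) with the fixed block and did not pass (adjusted p = 0.12). Jointly over the times 0 members passed that test, against 0.485% of all genes. At an unadjusted p under 0.05 and over 1.5-fold, 4 members and 350 genes did. A change past the threshold in gp130flox only is therefore not shown to differ from that in gp130-.

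Itga2, the alpha chain of a collagen receptor, lay at 4.90, 5.54 and 7.09 in gp130flox at 0 h (lowest, median, highest of 7) and at 4.43, 4.95 and 5.42 at 12 h, with overlap. The own change of the preparations was -1.67, -1.37, -1.36, -0.62, -0.53, -0.38 and 0.06, so that 6 of 7 lay below 0. The fit with the fixed replicate block gave -0.84 (SE 0.17, adjusted p = 0.0021), and that without it the same size with an adjusted p of 1. In gp130- the own change at 12 h was below 0 in all 6 preparations, from -1.61 to -0.16, which did not pass (-0.50, SE 0.19, adjusted p = 0.97), and the difference between the genotypes' changes did not pass either (0.34, SE 0.25, adjusted p = 0.78). Itga2 was singled out after its values were seen.

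**Figure D2:**
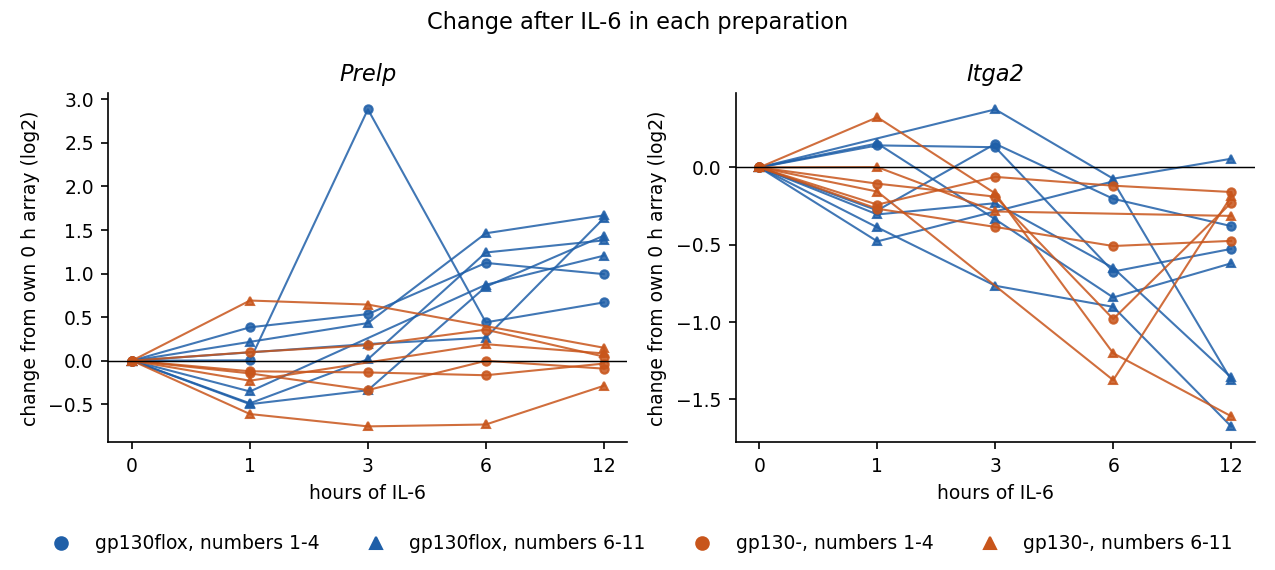
Change of the log2 signal of Prelp and Itga2 from the preparation's own 0 h array (y axis) against hours of IL-6 (x axis, evenly spaced), 1 line per preparation, gp130flox in blue and gp130- in orange. At 12 h the 7 Prelp lines of gp130flox end between 0.67 and 1.67 and those of gp130- between -0.29 and 0.15, while Itga2 ends below 0 in 12 of 13 preparations, and 1 gp130flox array at 3 h stands far above the rest for Prelp.

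That array, gp130flox number 1 at 3 h, stood apart in other members too. Its Prelp signal was 8.18, against a mean of 5.57 over the other 4 arrays of its preparation. Fn1, Nid1, Sparc, Dcn, Bgn and Itga7 were higher on it by 1.51 to 1.87 than on those 4, and 10 of 54 members had their highest signal of all 61 arrays there, against 6.88% of all tested genes. Another array, gp130- number 9 at 3 h, held the highest signal of more genes (8.07%). The hepatocyte markers differed on the gp130flox array by a median of 0.36, from -0.48 (Hnf4a) to 4.07 (Ahsg). The stellate and fibroblast markers differed by a median of 0.75, from -0.65 (Thy1) to 1.95 (the smooth muscle actin Acta2). The part of any of these in the members' values was not tested. Leaving out this gp130flox array moved the 3 h difference of Prelp from -1.02 to -0.68, neither of which was called.

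Averaged over the times, with 1 mean per preparation and the set of numbers as a term, 4 members were called: Fn1 and Prelp lower and Col18a1 and Itgb3bp higher in gp130- (limma, 13 preparations). Each pair was 2 of 54, where 1.6% of all genes were lower and 1.55% higher. Of the 54 members 46 differed by less than 0.3, and the 5 laminins all did.

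Fn1 encodes fibronectin, a glycoprotein that links cells to collagen and that hepatocytes secrete into plasma. Its preparation means differed both by set and by genotype. In numbers 1 to 4 they were 11.05 and 11.20 in gp130flox and 10.49, 10.27 and 9.11 in gp130-. In numbers 6 to 11 they were 9.46, 9.79, 9.43, 9.42 and 9.64 in gp130flox and 8.83, 8.30 and 8.09 in gp130-. Within each set every gp130- preparation was below every gp130flox preparation, while over both sets the genotypes overlapped. The difference was -1.15 (SE 0.20, adjusted p = 0.0052) with the set as a term and -0.82 (SE 0.46, adjusted p = 0.78) without it. Array weights, whose median was lower in numbers 1 to 4, gave Fn1 differences of -0.18, 0.35, 0.27, 0.12 and 0.082 from 0 to 12 h, none of them called, so the direction was turned at 4 of 5 times. By time, no Fn1 difference was called without the set term (-0.67 to -1.03), and with it all 5 were (-0.93 to -1.44, adjusted p 0.00079 to 0.048, limma). The Fn1 difference was present at 0 h, at -1.09 (SE 0.27, adjusted p = 0.02) with the set term. Other Fn1 probes gave -0.74, -0.47 and -0.05, the last of which was detected on 9 arrays.

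With the set as a term, 2, 3, 4, 5 and 5 members were called from 0 to 12 h. All genes lower in gp130- were then 0.543%, 1.04%, 2.42%, 2.66% and 2.13%, and all higher 0.543%, 1.15%, 1.94%, 2.43% and 1.61%. The member added beside Fn1 and those named above was Nid1, which links laminin to type IV collagen, at 3 h (-0.97, SE 0.22, adjusted p = 0.0033). In the fit without the set term the 3 h Nid1 difference was -0.62 and not called, it was -0.17 without the gp130flox array number 1, and array weights turned it to 0.45. A second Nid1 probe gave -0.15 at 3 h, and over the times 0.13 against -0.44 for the brightest, so that the direction of the mean depends on the probe. In the joint F-test over the 5 times, 5 members were called without the term (3.59% of all genes) and 8 with it (8.83%). The same test called 2 members within numbers 1 to 4 (Col18a1 and Itgb4, against 4.04% of all genes) and 10 within 6 to 11 (15.6%). These fits count the arrays of 1 preparation as separate samples. With the random replicate block over all arrays and no set term, the F-test called 2 members, Itga7 and Prelp, against 1.31% of all genes.

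**Figure D3:**
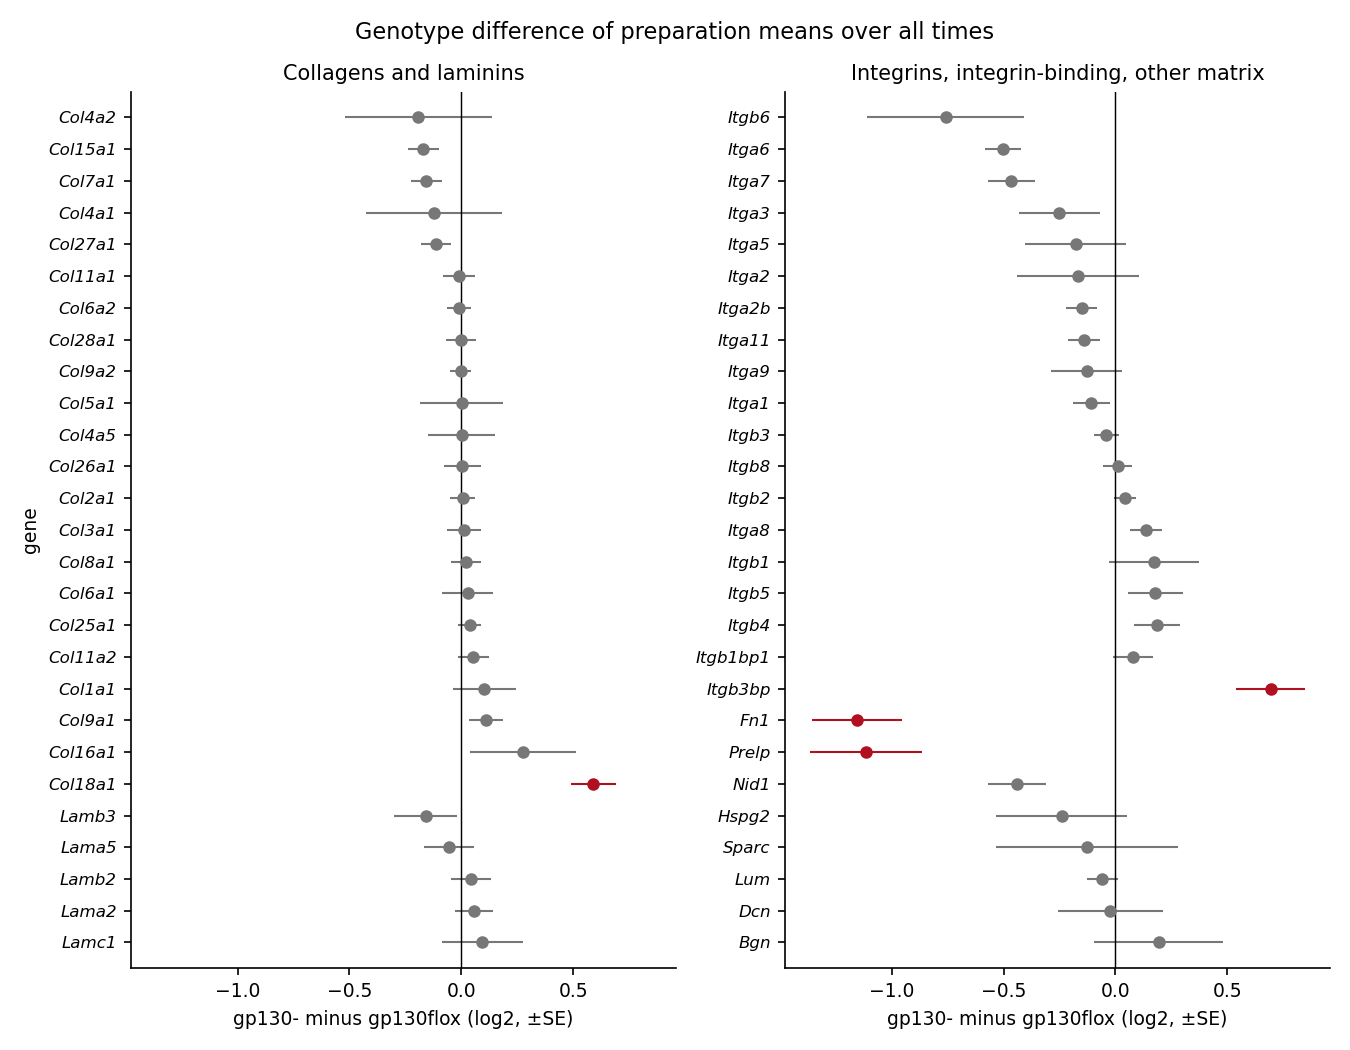
Difference gp130- minus gp130flox of the preparation means over all times (x axis, log2, with SE from limma with the set as a term) for the 54 tested members (y axis), red where called and grey where not. The red points are Fn1 and Prelp at -1.15 and -1.11 and Col18a1 and Itgb3bp at 0.59 and 0.69, and most other members lie within 0.3 of 0.

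Among the collagens Col18a1 alone was called in the genotype comparisons over all arrays, and Col5a1 was called lower at 12 h within numbers 6 to 11 (-0.73, SE 0.19, adjusted p = 0.011). The fit within that set called 7 of 54 members at 12 h, against 1005 of 12157 genes. Col18a1 encodes a basement membrane collagen that carries heparan sulfate chains and gives rise to endostatin. At 1 h the 6 gp130flox arrays ran from 8.54 through 9.02 to 9.27 and the 6 gp130- arrays from 9.52 through 9.68 to 9.97, with no overlap. At 6 h the 7 gp130flox arrays lay at 8.65, 8.84 and 9.42, and the 5 gp130- arrays at 9.37, 9.57, 9.61, 9.72 and 9.83, with 1 gp130flox array inside their range. The differences from 0 to 12 h were 0.65, 0.77, 0.22, 0.72 and 0.61 (SE 0.18 to 0.20, adjusted p = 0.23, 0.039, 0.86, 0.037 and 0.10). Over the times the preparation means were 8.84 to 9.25 in gp130flox and 9.24 to 9.81 in gp130-, which touched in 1 preparation of each, and differed by 0.59 (SE 0.10, adjusted p = 0.0046). With the random replicate block no single time was called (adjusted p of 0.23 at 1 h and 0.27 at 6 h). Leaving out 1 array ended the call in 7 of 12 cases at 1 h (numbers 1, 7 and 9 of gp130flox and 3, 4, 6 and 7 of gp130-, adjusted p up to 0.127) and in 10 of 12 at 6 h (all but gp130flox number 8 and gp130- number 7, up to 0.118). For the mean over the times, leaving out any of 7 preparations (1, 2, 10 and 11 of gp130flox, 3, 4 and 6 of gp130-) took the difference under 1.5-fold, with adjusted p of at most 0.0152. A second Col18a1 probe differed by 0.28 in the same direction. The other 21 collagens ranged from -0.19 to 0.28 in the mean over the times, including the fibrillar chains Col1a1, Col3a1 and Col5a1 and the type IV chains Col4a1, Col4a2 and Col4a5.

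Col4a1 and Col4a2, the chains of the type IV collagen found in most basement membranes, were not called between the genotypes and varied together over the preparations. The genes lie head to head on chromosome 8, and their RefSeq promoter windows (GRCm38.p6, chr8:11312777-11313076, minus strand, for Col4a1 and chr8:11312555-11312854, plus strand, for Col4a2) share 78 bases, in capitals below, each on its own strand.

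Col4a1: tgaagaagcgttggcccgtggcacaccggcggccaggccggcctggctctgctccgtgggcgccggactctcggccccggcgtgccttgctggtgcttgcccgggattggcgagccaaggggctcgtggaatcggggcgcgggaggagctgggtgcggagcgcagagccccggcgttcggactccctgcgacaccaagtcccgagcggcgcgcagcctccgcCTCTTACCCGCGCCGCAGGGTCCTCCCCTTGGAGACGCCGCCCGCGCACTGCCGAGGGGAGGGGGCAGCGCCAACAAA
Col4a2: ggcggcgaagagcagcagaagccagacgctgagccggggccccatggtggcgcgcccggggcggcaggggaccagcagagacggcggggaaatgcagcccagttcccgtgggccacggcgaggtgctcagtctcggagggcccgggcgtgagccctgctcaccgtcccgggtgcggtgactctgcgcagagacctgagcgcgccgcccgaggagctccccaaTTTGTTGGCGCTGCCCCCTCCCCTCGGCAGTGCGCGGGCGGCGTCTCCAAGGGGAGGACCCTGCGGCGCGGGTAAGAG

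In gp130flox the Col4a1 means of preparations 1, 2, 7, 8, 9, 10 and 11 were 8.10, 8.72, 7.47, 7.86, 7.66, 7.75 and 8.05, and those of Col4a2 were 7.89, 8.43, 7.17, 7.46, 7.91, 7.59 and 7.89. In gp130- preparations 2, 3, 4, 6, 7 and 9 they were 8.61, 8.87, 6.72, 7.54, 7.56 and 8.23 for Col4a1 and 8.35, 8.17, 6.16, 7.32, 7.62 and 8.09 for Col4a2. Preparation 4 of gp130- was the lowest for both and also for Sparc (5.47, against 6.23 to 8.38 elsewhere). Hspg2, another basement membrane gene, was lowest in that preparation too (4.88) and, like Col4a1, highest in gp130- preparation 3 (6.98). Correlations of other pairs of members were not computed, so the joint variation is not shown to be particular to Col4a1 and Col4a2. Over the 13 preparations Pearson's r was 0.918 (permutation p = 2e-05, the smallest that 100000 resamples give) and Spearman's rho 0.896 (permutation p = 0.0001). Without the 2 preparations farthest from the Col4a1 median, r was 0.908 (permutation p = 0.00018) and rho 0.854 (permutation p = 0.0017). Within the 8 preparations of numbers 6 to 11, r was 0.771 (exact permutation p = 0.028) and rho 0.714 (exact permutation p = 0.058). The tests were two-sided, the adjusted p over these 6 values were 0.00012 to 0.058, and the 5 preparations of numbers 1 to 4 were too few for a value of their own. The pair was chosen with earlier results of these data known, and the arrays behind both genes are the same, so shared cell composition enters both.

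**Figure D4:**
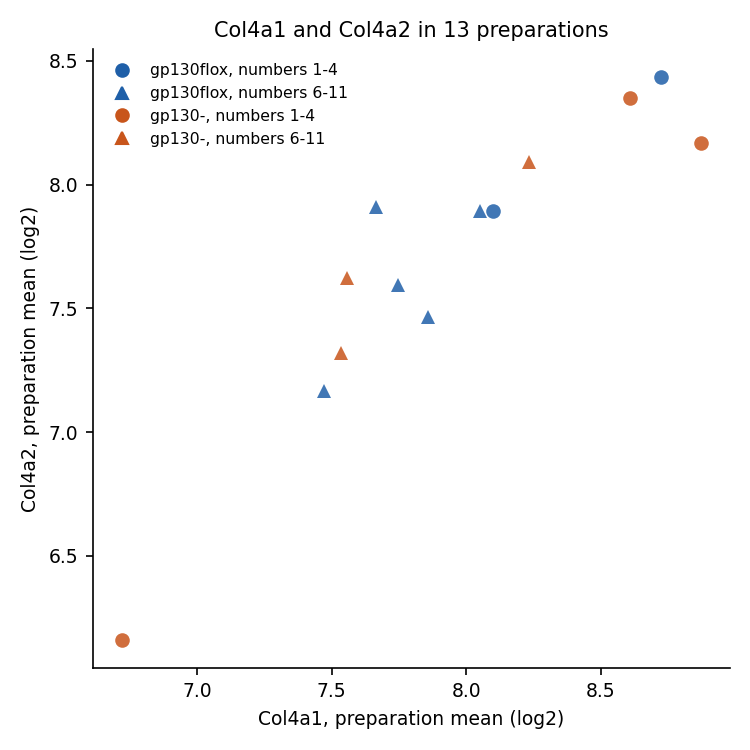
Preparation mean of Col4a2 (y axis, log2 signal) against that of Col4a1 (x axis, log2 signal) for the 13 preparations, gp130flox in blue and gp130- in orange, circles for numbers 1 to 4 and triangles for 6 to 11. The points rise together from gp130- preparation 4 at 6.72 and 6.16 to preparations near 8.7 and 8.4, with both genotypes along the same line.

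Of the 17 integrins tested, Itga6 and Itga7 were called over all arrays, both lower in gp130- and both near the detection limit, which lay between 4.47 and 4.83 on the arrays. Itga6 pairs with Itgb1 or Itgb4 and Itga7 with Itgb1 to bind laminins. Itga6 at 3 h ran from 5.12 through 5.19 to 5.71 in 6 gp130flox arrays and read 4.43, 4.55, 4.65, 4.71 and 4.89 in gp130-. The arrays did not overlap at 3 h nor at 6 h (5.15 to 5.45 against 4.62 to 5.06), and overlapped at the other times. The Itga6 probe was detected on 6 of 6 gp130flox arrays at 3 h and 3 of 5 gp130- arrays, so the gp130- values lie partly at background. The differences were -0.27, -0.61, -0.64, -0.45 and -0.45 (SE 0.14 to 0.16), called at 1 and 3 h (adjusted p = 0.039 and 0.021) and at neither with the random replicate block (0.32 and 0.16). Leaving out gp130flox number 8 or gp130- number 6 or 9 ended the 3 h call (adjusted p up to 0.0937), and 6 of 12 arrays the 1 h call (numbers 1 and 9 of gp130flox and 4, 6, 7 and 9 of gp130-, up to 0.293). All 7 gp130flox preparation means (4.90 to 5.31) were above all 6 of gp130- (4.47 to 4.78), by 0.50 (SE 0.08, adjusted p = 0.0035), which is under 1.5-fold.

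Itga7 differed late. At 12 h the 7 gp130flox arrays lay at 5.14, 5.60 and 5.97 (lowest, median, highest) and the 6 gp130- arrays at 4.40, 4.59 and 4.89, with no overlap. At 6 h they lay at 4.85, 5.47 and 5.93 and at 4.38, 4.46, 4.74, 4.83 and 4.94, overlapping through 1 gp130flox array. The differences were -0.20 and -0.04 at 0 and 1 h, -0.55 at 3 h, and -0.77 and -0.89 at 6 and 12 h (SE 0.20 and 0.19, adjusted p = 0.036 and 0.0055). The random replicate block left neither called (0.18 and 0.07), and the probe was detected on all 7 gp130flox and 4 of 6 gp130- arrays at 12 h. Leaving out any of 8 of 12 arrays ended the 6 h call (numbers 7, 8, 9 and 11 of gp130flox and 2, 3, 6 and 7 of gp130-, adjusted p up to 0.13) and none that at 12 h. The other 15 integrins were not called at any single time over all arrays. Within numbers 6 to 11 Itga9, the alpha chain of a tenascin receptor, was called lower at 3, 6 and 12 h (-0.70, -0.72 and -0.60, adjusted p = 0.045, 0.025 and 0.035, limma) and Itgb6 at 6 h (-0.84, adjusted p = 0.040). The fit within that set called 4, 6 and 7 of 54 members at these times, against 911, 1170 and 1005 of 12157 genes. At 3 and 6 h it had only 2 gp130- arrays. The beta chain Itgb1, shared by most matrix receptors, and Itgb5, a vitronectin receptor chain, differed by less than 0.2 in the mean over the times, and Itga5, the fibronectin receptor chain, by -0.18 (SE 0.23).

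Itgb3bp is a member by its symbol, after a protein that binds the tail of the integrin chain Itgb3, and its product is also known as the kinetochore protein CENP-R. Its promoter window (GRCm38.p6, chr4:99829109-99829408, minus strand) is shown since it was 1 of 3 among the 42 members matched in RefSeq's table that held TTCNNNGAA, here in capitals. The other 2 were Col28a1 and Lamb2, and 3 of the 48 windows of these members (6.25%) held the motif, against 8.3% of all 32851 windows. A match in the letters is a description only.

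Itgb3bp: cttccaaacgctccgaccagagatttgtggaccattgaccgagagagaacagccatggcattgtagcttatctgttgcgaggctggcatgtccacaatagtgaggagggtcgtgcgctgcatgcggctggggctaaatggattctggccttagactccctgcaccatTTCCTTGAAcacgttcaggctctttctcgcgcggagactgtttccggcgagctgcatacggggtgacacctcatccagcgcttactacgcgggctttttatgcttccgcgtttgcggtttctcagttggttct

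At 6 h Itgb3bp lay at 4.41, 5.45 and 6.77 (lowest, median, highest) on the 7 gp130flox arrays and at 6.80, 6.80, 6.85, 6.92 and 6.97 on the gp130- arrays, and the genotypes were apart there and at 3 h. The differences from 0 to 12 h were 0.60, 0.45, 0.92, 1.21 and 0.83 (SE 0.26 to 0.28), called at 6 h (adjusted p = 0.0078, and 0.025 with the random replicate block, where 0.436% of all genes were higher). Within numbers 6 to 11 the 6 h difference was 1.52 (adjusted p = 0.0042) and within 1 to 4 it was 0.37 (adjusted p = 0.42). Numbers 6 to 11 held only 2 gp130- arrays at 6 h, numbers 6 and 7. Preparation 9 of gp130-, not among them, had a mean over its times of 6.12, against 6.93 and 6.78 in 6 and 7. Without gp130- preparations 2 and 3, which had the Xist signal, the 6 h difference was 1.22 and not called (adjusted p = 0.061). The mean over the times was not called without preparation 6 or 7 of gp130- (adjusted p up to 0.0573).

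By column number, 11 of 54 members had preparation means that did not overlap between the sets and differed over 1.5-fold. These sets were first seen in the expression values, so the figures describe them and are not tested. In numbers 6 to 11, 9 members were lower, which is 16.7% of members against 15.5% of all genes, and 2 were higher, 3.7% against 11.9%. The lower members included 2 of 5 laminins and 3 of 17 integrins. The 5 preparations of numbers 1 to 4 lay between 6.20 and 7.03 for Lamb3, a chain of the laminin under epithelia, and the 8 of numbers 6 to 11 between 4.46 and 5.09, a difference of -1.84. For Itga3, the alpha chain of a laminin receptor, they lay between 10.04 and 11.31 and between 8.75 and 9.34, a difference of -1.88. For Nid1, the nidogen that bridges laminin and type IV collagen, they lay between 9.06 and 10.31 and between 8.17 and 8.86, a difference of -1.22, but a second Nid1 probe, detected on 59 arrays, differed by 0.01. Lama5, an alpha chain of basement membrane laminins, lay between 5.44 and 6.26 in numbers 1 to 4 and between 4.34 and 4.59, at background, in 6 to 11, where 8 of 36 arrays detected it. Itgb4, the partner of Itga6 in hemidesmosomes, lay between 5.08 and 5.93 in numbers 1 to 4 and between 4.26 and 4.45, at background, in 6 to 11, where 2 of 36 detected it. Lamb3 was detected on 20 of 36 arrays in numbers 6 to 11. The sizes of the differences of such dim genes are not measured on both sides. Under the alternative processing settings Lamb3, Lama5 and Itgb4 differed by as little as -1.02, -0.67 and -0.55.

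Of the collagens, Col4a5, a type IV chain of restricted basement membranes, lay between 6.25 and 7.26 in numbers 1 to 4 and between 4.35 and 4.69, partly at background, in numbers 6 to 11, and was detected on 10 of 36 arrays there and on 25 of 25 in numbers 1 to 4. Col16a1, a collagen of the fibril surface, was detected on all 25 arrays of numbers 1 to 4 and on 0 of 36 of the others, at least 2.04-fold lower against the lowest detected signal. Col5a1, a minor fibril chain, differed by -1.19 and the collagen receptor chain Itga1 by -0.61. In numbers 6 to 11 Col5a1 and Itga1 were detected on 17 and 6 of 36 arrays, with means of 4.68 and 4.48, partly at background. Under the alternative processing settings Col4a5, Col16a1, Col5a1 and Itga1 differed by as little as -1.25, -0.70, -0.61 and -0.28. The higher members were Dcn, the proteoglycan decorin, by 1.18 (7.31 to 8.59 against 8.67 to 9.54), and Itgb1bp1, whose product binds the tail of Itgb1, by 0.67. A second Dcn probe was higher by 1.20, but a second Itgb1bp1 probe was lower by 1.75, so the direction of Itgb1bp1 depends on the probe. The summed signal of the 11 tested stellate and fibroblast markers was 5401 to 10760 in gp130flox and 6201 to 13160 in gp130- of numbers 1 to 4, and 1319 to 2440 and 1306 to 1777 in those of 6 to 11. The summed signal of the 21 tested hepatocyte markers was 53360 to 79350 in gp130flox and 42350 to 73320 in gp130- of numbers 1 to 4, and 155200 to 185300 and 164200 to 195800 in those of 6 to 11. The summed signal of the 17 tested endothelial markers was 626.3 to 1323 in gp130flox and 712.6 to 1223 in gp130- of numbers 1 to 4, and 1912 to 3116 and 1857 to 3990 in those of 6 to 11. The sums are led by bright genes such as Vim. Of the 11 stellate and fibroblast markers 4 were lower in numbers 6 to 11 and 1 higher, with a median of -0.31. Of the 21 hepatocyte markers 15 were higher there and 1 lower. Of the endothelial markers 13 of 17, and of the Kupffer and leukocyte markers 10 of 15, were higher there and 0 lower. The part of these in the members' levels was not tested.

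**Figure D5:**
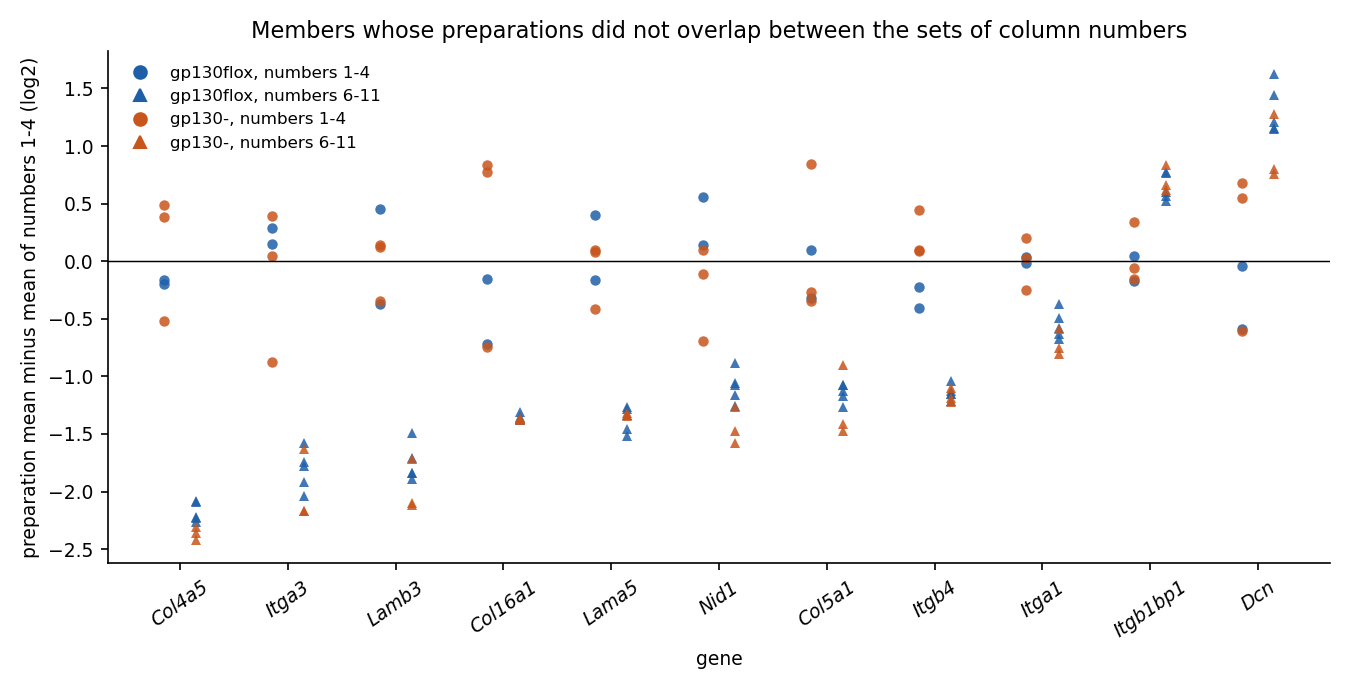
Preparation means of the 11 members that did not overlap between the sets and differed over 1.5-fold, as the difference from the mean of numbers 1 to 4 (y axis, log2), by gene (x axis), with circles for numbers 1 to 4, triangles for 6 to 11, blue for gp130flox and orange for gp130-. In 9 genes all 8 triangles lie below the 5 circles and in Itgb1bp1 and Dcn above them.

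Few other genes of the pathway were called between the genotypes. None of 21 tested enzymes of collagen synthesis, 23 other matrix proteins, 24 focal adhesion linkers and 3 integrins without a number (Itgav, Itgal and Itgae) was called over all arrays at any time or in the mean over the times. Of 15 other matrix receptors, the heparan sulfate proteoglycan Sdc4 was lower at 6 h (-0.86, SE 0.21, adjusted p = 0.018) and 12 h (-0.81, SE 0.20, adjusted p = 0.023), and the hyaluronan receptor Cd44 was lower in the mean over the times (-1.03, SE 0.23, adjusted p = 0.018). In the same mean the cholangiocyte marker Sox9 was lower, and of 21 hepatocyte markers Hp was lower (-0.98) and 5 were higher, among them Cps1 (1.42), G6pc (1.12) and Cyp2e1 (0.60). The part of these in the members' differences was not tested. Of 11 stellate and fibroblast, 17 endothelial, 15 Kupffer and leukocyte and 5 platelet markers none was called between the genotypes. After IL-6 in gp130flox, 1 gene of these lists was called with the fixed block, the matrix protein gene Ccn1, by -0.82 at 1 h (adjusted p = 0.00068).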

How the data were processed

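Hepatocyte RNA from 61 cultures was read on Illumina MouseWG-6 v2 arrays, 1 sample per array. The authors deposited 1 table of non-normalized probe intensity with a detection p-value per array, and 1 table of normalized intensity made in GenomeStudio 1.6.0 with cubic spline normalization, used here as an alternative. Columns were matched to groups by their headers. Signals were background-corrected, quantile-normalized and put on the log2 scale with neqc (offset 16) in limma 3.58.1 under R 4.3.3. Genes were tested by their brightest probe if 5 arrays or more had a detection p below 0.05 for it (12157 genes, 45281 probes on the array), and p-values were adjusted by Benjamini-Hochberg over all of them.

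Genotypes were compared at each time with 10 group means over all arrays, and over the times on preparation means with the set of numbers as a term. A call needed an adjusted p under 0.05 and over 1.5-fold. The F-tests over the times used the same fit. GenomeStudio's error model, which the study's methods name, could not be run here. The number in a column header marks arrays that deviated together: over 114 pairs of arrays of 1 genotype and number the correlation of deviations from the group means was at least 0.276 (median 0.856), and the preparation was used as a replicate block beside the results. Equal numbers in the 2 genotypes did not pair (13 pairs, median -0.03). The procedure was run on simulated data with known changes. For the genotype fit at a single time the simulated arrays were independent, without preparation effects or a shift between the sets. That simulation cannot show how the p-values of this fit hold under either. Arrays carry no read depth, so their number limits the precision.

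The members, gene lists and sets of numbers were chosen with earlier results of these data known. Genes named are those called in a comparison, the 10 brightest members, the 6 members that differed most between the sets in each direction, and Prelp, Col18a1, Fn1 and Sparc. Other members named, among them Itga2, Itgb4, Itga1, Col5a1 and Itgb6, were chosen after their values were seen. Promoter windows came from RefSeq (GRCm38.p6), where 42 of 54 members matched. The search of protein sequences that had been planned was not run. Alternatives were the normalized table, no background correction, another offset, no detection filter, the second probe, array weights, blocks, sets, and leaving out arrays.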

Additional observations from a re-analysis of the deposited data

Results flagged for a closer look

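In 6 of 60 groups of 4 to 10 arrays 1 array lay further from the others than Dixon's criterion allows, where chance gives about 1 in 20. Prelp at 3 h in gp130flox was 8.18 in number 1, with the next array at 6.34. Col18a1 was 10.04 on the same array, with the next at 8.99. Col18a1 was 9.42 in gp130flox number 8 at 6 h, with the next at 8.94, and 9.15 in gp130- number 4 at 3 h, below the next at 9.37. Itga7 was 5.50 in gp130flox number 11 at 1 h, with the next at 4.88. Itgb3bp was 5.72 in gp130- number 9 at 0 h, below the next at 6.54.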

How the results depend on the processing

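Called members at 0, 1, 3, 6 and 12 h numbered 0, 2, 1, 4 and 2, with 4 over the times and 0 in each IL-6 test. With the normalized table there was 1 at 1 h, 0 at 3 h and 2 over the times. Without background correction there was 1 at 1 h, 0 at 3 h, 1 at 12 h and 2 over the times, and an offset of 50 gave the same counts and 1 for IL-6 in gp130flox. Without the detection filter there was 1 at 1 h and 2 at 6 h, and with the second probe 1 at 1 h. Array weights gave 1, 10, 12, 14 and 12, and 1 for IL-6 in gp130flox. The share of all genes called with the weights was not taken, so these counts have nothing beside them. Nor was it taken for the normalized table and the background correction, offset, detection filter and second probe settings. The same holds for the fits of only the groups compared and for leaving out 1 array or 1 preparation. The weights had a median of 0.75 in numbers 1 to 4 and 1.32 in 6 to 11, and turned Fn1 to 0.35, 0.27, 0.12 and 0.082 at 1, 3, 6 and 12 h and Nid1 to 0.45 at 3 h. The cause was not tested. The set as a term gave 2 at 0 h, 4 at 3 h and 5 at 12 h, against 132, 530 and 455 of all genes. The random replicate block gave 0 at 1 h, 0 at 3 h, 1 at 6 h, 1 at 12 h and 2 for IL-6 in gp130flox, and the fixed replicate block 2 for the last. All genes called were 98, 194, 190, 161 and 116 with the random block, and 163 with the fixed block. Numbers 1 to 4 alone gave 0 at 1, 3, 6 and 12 h, against 42, 260, 82 and 73 of all genes. Numbers 6 to 11 alone gave 1, 2, 4, 6 and 7 from 0 to 12 h and 1 for IL-6 in gp130flox. All genes called there were 411, 623, 911, 1170, 1005 and 115. A fit of only the groups compared gave 0 at 1, 3 and 6 h, with fewer arrays in the fit, and could not be made for the difference of changes. Without gp130- preparations 2 and 3, a setting chosen after seeing the data, there was 1 at 1 h and 1 at 6 h, against 95 and 205 of all genes. Without the set term there was 1 over the times, against 61 of all genes. The second Nid1 probe turned its mean difference to 0.13. Leaving out 1 array gave 0 to 2 at 1 h, 0 to 1 at 3 h, 1 to 3 at 6 h, 2 to 3 at 12 h, and 0 at 0 h and for IL-6. Leaving out 1 preparation gave 1 to 4 over the times, with 1 without gp130- number 6 or 7. Signals of Itga6, Itga7 and other dim members near background have compressed differences.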

Other observations

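Itgb6, the beta chain of an epithelial integrin that activates latent TGF-beta, had a mean of 8.27 in gp130flox preparation 1, while the other 12 preparations of both genotypes lay between 4.74 and 6.22. Its difference between the genotypes over the times was -0.76 (SE 0.35, adjusted p = 0.23, limma). Among the preparations of numbers 1 to 4, Itgb6 and Sparc had the widest spread of all members, with SDs of 1.20 and 1.14 over 5 preparations.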
